A study of Mus musculus with 8 samples.

Results

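The 10 immediate early transcription factor genes *Egr1*, *Egr2*, *Egr3*, *Fos*, *Fosb*, *Jun*, *Junb*, *Nr4a1*, *Nr4a2* and *Nr4a3* were followed across resting bone marrow–derived mast cells (BMMCs), as 10 of the 24059 gene symbols counted. They were chosen by name, with results of these same samples in view, so their levels, their spread between cultures and their differences between treatments are a description. BMMCs were grown for at least 4 wk in IL-3 from the marrow of C57BL/6 mice aged 6–8 wk. Cells from 4 mice were transfected with Cas9 ribonucleoproteins (RNPs) carrying 3 guides against *Zc3h12a* (labelled Zc3h12a KO) or with scrambled RNPs (labelled Zc3h12a WT). They were lysed unstimulated 1 wk later, which gave 4 samples per RNP and 8 in all. *Zc3h12a* encodes Regnase-1, an endoribonuclease that degrades inflammatory mRNAs. The *Zc3h12a*-RNP samples are edited pools and not clones, and both groups went through the same transfection.

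Immediate early genes are transcribed within minutes of a stimulus, from factors already present in the resting cell, without new protein synthesis. In mast cells, cross-linking of the IgE receptor or binding of stem cell factor to Kit activates MAP kinases and calcium signals. These act on serum response factor with its ETS partners, and on CREB, at the promoters of such genes. The Egr proteins are zinc finger factors that bind GC-rich sites, Fos and Jun proteins pair to form AP-1, and the Nr4a proteins are orphan nuclear receptors. Their mRNAs are short-lived, and the corepressors Nab1 and Nab2 limit the Egr proteins.

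The structure of these genes, which the choice did not use, was set beside that of the other expressed genes. The median gene spanned 6214 bases with 3 exons, beside 27961 bases and 9 exons over 13183 protein-coding genes tested (GRCm39, GENCODE). Genes shorter than 8000 bases made up 7 of the 10, beside 14.9% of those genes. The exceptions were *Nr4a1* (chr15:101151980-101172681, plus strand), *Nr4a2* (chr2:56996842-57014331, minus strand) and *Nr4a3* (chr4:48045153-48086447, plus strand). The 3′ untranslated region held the AU-rich pentamer ATTTA in 10 of 10, beside 72.9% of the genes, at a median of 2.57 per kilobase beside 1.37. The longer TATTTAT was found in 5 of 10 beside 33.1%.

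Promoter windows of 250 bases before to 50 after the start site were listed by RefSeq (GRCm38.p6) for 8 of the 10 genes, and not for *Egr1* and *Egr3*. The windows below are shown because they hold, or lack, the core of the cAMP response element (CRE), the letters TGACG on either strand, which 7 of the 8 genes held in at least 1 window beside 20.8% of 32851 windows over all genes (23.0% of 27025 genes). Capitals mark that core (CGTCA on the opposite strand) and, in *Egr2*, also the CArG box, the letters bound by serum response factor. *Fos* held 2 CRE cores at positions -129 and -66 from the start site, *Nr4a1* held 4 (-233, -213, -69 and -40), *Nr4a3* held 4 (-231, -213, -205 and -147), and this *Egr2* window held 2 (-111 and -55) around a CArG box at -72. *Jun* had no CRE core in its window.
Fos, chr12:85473640-85473939, plus strand: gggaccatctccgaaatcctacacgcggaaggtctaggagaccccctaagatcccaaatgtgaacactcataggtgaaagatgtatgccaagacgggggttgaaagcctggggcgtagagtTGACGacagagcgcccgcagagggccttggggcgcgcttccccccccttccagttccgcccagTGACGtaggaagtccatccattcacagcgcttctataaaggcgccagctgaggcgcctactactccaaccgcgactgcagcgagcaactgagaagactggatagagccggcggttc
Nr4a1, chr15:101266596-101266895, plus strand: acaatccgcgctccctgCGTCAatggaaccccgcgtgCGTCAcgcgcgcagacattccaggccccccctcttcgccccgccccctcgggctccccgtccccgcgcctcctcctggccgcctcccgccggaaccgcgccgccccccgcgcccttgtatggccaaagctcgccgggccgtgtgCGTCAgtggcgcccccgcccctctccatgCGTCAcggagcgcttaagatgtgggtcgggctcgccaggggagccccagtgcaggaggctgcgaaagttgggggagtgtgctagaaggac
Nr4a3, chr4:48045055-48045354, plus strand: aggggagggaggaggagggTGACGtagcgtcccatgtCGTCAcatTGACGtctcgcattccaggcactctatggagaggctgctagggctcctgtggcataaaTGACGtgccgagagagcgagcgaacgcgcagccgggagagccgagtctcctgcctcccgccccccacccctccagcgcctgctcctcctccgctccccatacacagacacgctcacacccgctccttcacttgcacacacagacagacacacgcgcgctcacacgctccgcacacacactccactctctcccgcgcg
Egr2, chr10:67537619-67537918, plus strand: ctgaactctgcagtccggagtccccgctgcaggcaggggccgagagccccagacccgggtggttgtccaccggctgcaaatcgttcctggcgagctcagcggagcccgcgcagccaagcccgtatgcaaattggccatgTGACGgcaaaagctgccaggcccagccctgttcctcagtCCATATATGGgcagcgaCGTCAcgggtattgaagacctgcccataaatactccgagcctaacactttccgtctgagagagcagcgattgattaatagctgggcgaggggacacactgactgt
Jun, chr4:95052173-95052472, minus strand: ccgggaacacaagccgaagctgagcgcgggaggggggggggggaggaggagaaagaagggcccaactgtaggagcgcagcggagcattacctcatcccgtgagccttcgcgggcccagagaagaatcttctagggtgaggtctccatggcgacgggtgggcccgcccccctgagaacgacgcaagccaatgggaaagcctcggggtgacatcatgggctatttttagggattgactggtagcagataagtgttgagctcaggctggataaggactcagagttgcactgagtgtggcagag

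Other motifs, searched on both strands, were found for fewer of the 8 genes or differed less from the share of all genes. The CArG box was found for 1 of 8 genes (*Egr2*) beside 1.81% of genes (1.63% of windows). The GC box GGGCGG was found for 7 of 8 beside 38.2% of genes (35.7% of windows), and the letters TATAAA for 3 of 8 beside 15.7% (13.6% of windows). The ETS letters CCGGAA were found for 2 of 8 beside 16.7% of genes (14.9% of windows). The Egr letters GTGGGCG were found for 1 of 8 beside 8.99% (7.97% of windows). Neither the AP-1 letters TGANTCA (5.95% of genes, 5.20% of windows) nor the Nr4a half-site AAGGTCA (5.38% and 4.72%) was found in any of the 8 genes' windows. These matches describe the letters only, and serum response elements that lie further upstream are outside the windows.

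The samples held 19610240 to 33986762 counted reads each, and the 10 transcripts took 0.257% (scrambled, culture 1) to 3.05% (scrambled, culture 3) of them. *Egr1* alone ranked between the 3rd and the 52nd most counted gene of a sample. *Zc3h12a* mRNA averaged 34.8 ± 6.65 CPM (SD, n = 4; CPM are the counts of a gene relative to the scaled total of its sample) with scrambled RNPs and 33.2 ± 5.91 CPM with *Zc3h12a* RNPs, higher in 2 pairs and lower in 2, so its level gives no check of the labels. Of the mast cell markers, *Kit* lay between 2432 and 3926 CPM, *Fcer1a* between 2064 and 2920 CPM, and *Cpa3* between 26728 and 34240 CPM. Not all of that list were high: *Mcpt4* lay between 2.24 and 7.94 CPM, and *Tpsab1* had 0 to 3 reads per sample. The number of a replicate is taken here to stand for 1 mouse whose cells received both RNPs, which no label states, and it is called a culture. The mouse, its culture and any step done together cannot be told apart.

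Per kilobase of transcript, *Junb* (1401 ± 717 CPM per kb, SD, n = 8) and *Egr1* (1325 ± 826) were the most abundant, followed by *Nr4a1* (536 ± 533), *Fos* (341 ± 212), *Fosb* (330 ± 236), *Egr3* (298 ± 249), *Jun* (205 ± 114), *Egr2* (141 ± 105), *Nr4a2* (85.8 ± 75.9) and *Nr4a3* (14.5 ± 25.3). No neighbours in this order differed by more than their spread over samples, because each transcript varied widely between cultures. Within samples the order was steadier at the ends. *Egr1* exceeded *Nr4a1*, *Egr2* exceeded *Nr4a2* and *Nr4a2* exceeded *Nr4a3* in 8 of 8 samples each, whereas *Nr4a1* exceeded *Fos* in 4 of 8 and *Egr3* exceeded *Jun* in 3 of 8. With the length of all annotated exons in place of 1 transcript, *Egr1* (1325 CPM per kb) came before *Junb* (1064), and *Nr4a1* moved from the 3rd to the 7th place.

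*Egr1*, on chromosome 18, encodes the most studied Egr factor. With scrambled RNPs it stood at 1446, 4907, 12487 and 7810 CPM in cultures 1 to 4, and with *Zc3h12a* RNPs at 1529, 4529, 8640 and 6299 CPM. Culture 1 was lowest and culture 3 highest under both RNPs, and the groups overlapped. *Egr2* (chr10:67371305-67378018, plus strand), known for its role in myelination and lymphocyte anergy, stood at 18.7, 289, 937 and 502 CPM with scrambled RNPs and 43.1, 355, 691 and 524 CPM with *Zc3h12a* RNPs. *Egr3* (chr14:70314350-70320063, plus strand), whose own transcription Egr1 can drive, stood at 36.0, 761, 3313 and 1667 CPM and at 99.9, 954, 2034 and 1498 CPM. All 3 Egr transcripts thus kept 1 order of cultures under both RNPs, 1 lowest, then 2, 4 and 3.

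*Fos* (chr12:85520658-85524047, plus strand) encodes the prototype partner of Jun in AP-1. It stood at 109, 631, 972 and 1185 CPM with scrambled RNPs in cultures 1 to 4 and at 113, 626, 797 and 1326 CPM with *Zc3h12a* RNPs. Culture 4, not culture 3, was highest under both RNPs. *Fosb* (chr7:19036621-19043976, minus strand), its paralog, stood at 38.6, 997, 2369 and 1689 CPM with scrambled RNPs and 91.1, 1008, 1474 and 2327 CPM with *Zc3h12a* RNPs, so the highest culture was 3 in one group and 4 in the other.

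*Jun* (chr4:94937271-94940459, minus strand), a single-exon gene for the main Fos partner, stood at 109, 621, 998 and 786 CPM with scrambled RNPs and 226, 736, 544 and 1197 CPM with *Zc3h12a* RNPs. It was the one transcript whose culture 3 level with *Zc3h12a* RNPs lay below its culture 2 level. *Junb* (chr8:85701113-85705359, minus strand), which can restrain c-Jun in some settings, stood at 817, 2447, 4305 and 3255 CPM and at 668, 2235, 3779 and 2767 CPM. The order of cultures for *Junb* was that of the Egr transcripts, and the 3 Nr4a transcripts shared it.

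*Nr4a1* encodes Nur77, a receptor induced by antigen receptor signals in lymphocytes. It stood at 25.6, 827, 4277 and 1404 CPM with scrambled RNPs and 45.6, 920, 1996 and 1427 CPM with *Zc3h12a* RNPs. *Nr4a2* (Nurr1) stood at 11.6, 353, 1161 and 370 CPM and at 14.9, 328, 546 and 486 CPM. *Nr4a3* (Nor1) was the lowest of the 10, at 1.59, 12.1, 417 and 35.2 CPM and at 0.798, 11.3, 161 and 24.1 CPM. Its lowest value rested on 23 reads and its highest on 10600.

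**Figure D1:**
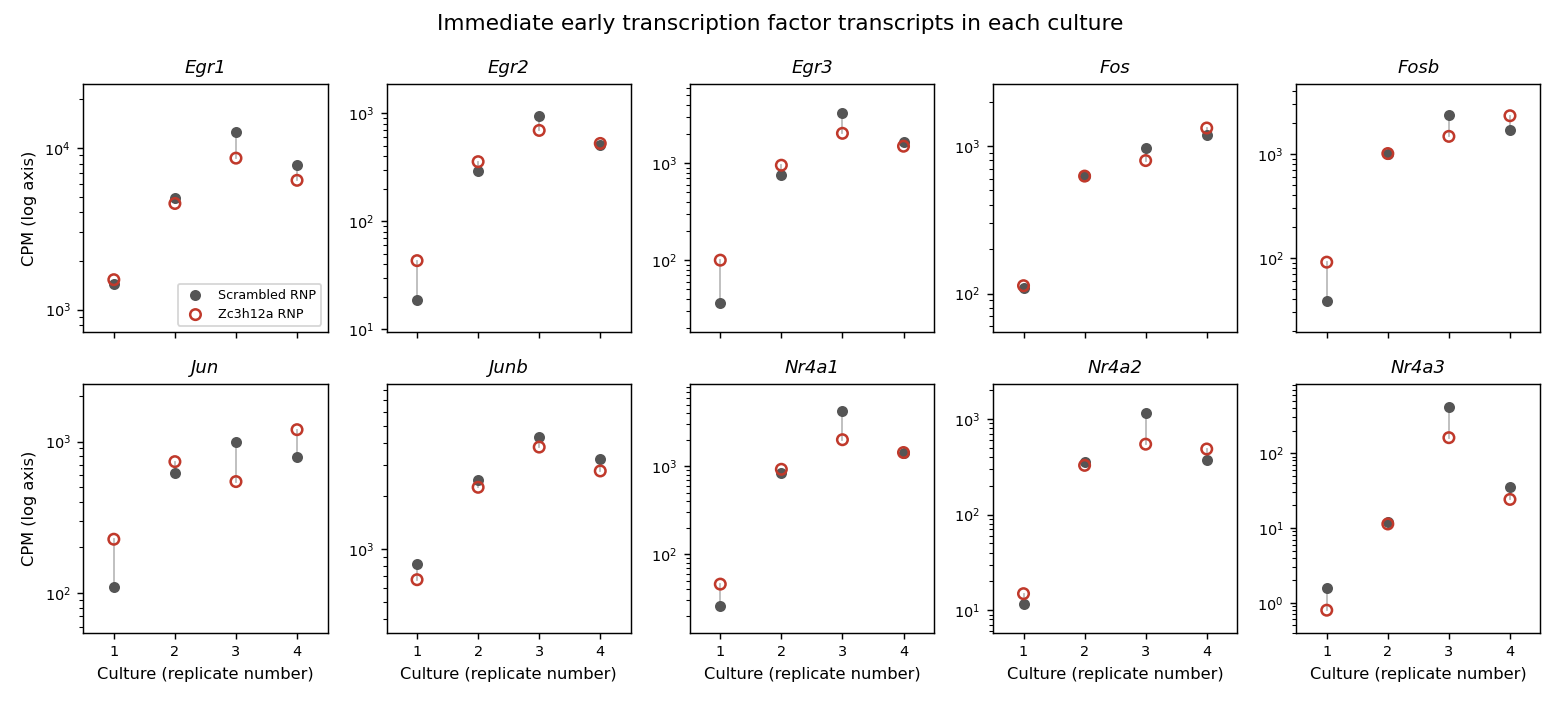
Level of each of the 10 transcripts (CPM, log axis, separate scale in each panel) in cultures 1 to 4, with scrambled RNPs (filled) and *Zc3h12a* RNPs (open) of 1 culture joined by a line. Both samples of culture 1 are the 2 lowest in every panel, and the lines are short beside the range of the cultures.

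The range of the culture means exceeded the largest difference between RNPs within a culture for 10 of 10 transcripts. Among the 4 scrambled samples, the highest exceeded the lowest 263-fold for *Nr4a3*, 167-fold for *Nr4a1*, 100-fold for *Nr4a2*, 92.0-fold for *Egr3*, 61.4-fold for *Fosb* and 50.1-fold for *Egr2*. *Fos* (10.9-fold), *Jun* (9.14-fold), *Egr1* (8.64-fold) and *Junb* (5.27-fold) varied less. The 4 *Zc3h12a*-RNP samples spanned between 5.29-fold (*Jun*) and 201-fold (*Nr4a3*). Both samples of culture 1 were the 2 lowest of the 8 for 10 of 10 transcripts, the scrambled sample of culture 3 was highest for 8, and the *Zc3h12a*-RNP sample of culture 4 was highest for *Fos* and *Jun*.

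Ranked among the 14934 genes tested by the range of the 4 culture means on the log2 scale, *Nr4a3* was 1st (range 7.75), *Nr4a1* 3rd (6.41), *Nr4a2* 5th (5.91), *Egr3* 7th (5.43), *Fosb* 8th (5.06) and *Egr2* 12th (4.82), beside a median of 0.76 over all genes. The other 4 ranked 32nd (*Fos*, 3.50) to 164th (*Junb*, 2.45). An edgeR quasi-likelihood F test of the culture terms called 10 of 10 at an adjusted p of at most 0.05, beside 28.0% of all genes tested, and nothing is read from that count because the transcripts were chosen with these samples in view. Culture 1 carried most of this spread. Without it, the median fold between the highest and lowest scrambled sample over the 10 transcripts went from 55.7 to 2.88. The test then called 7 of 10, without *Fosb*, *Jun* and *Nr4a2*, beside 1443 of the 14994 genes tested in that fit. Over the remaining 3 cultures *Nr4a3* still ranked 3rd of all genes (range 4.46 on the log2 scale, 34.4-fold among scrambled samples), while *Jun* ranked 9863rd (0.52), beside a median of 0.71 over all genes.

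**Figure D2:**
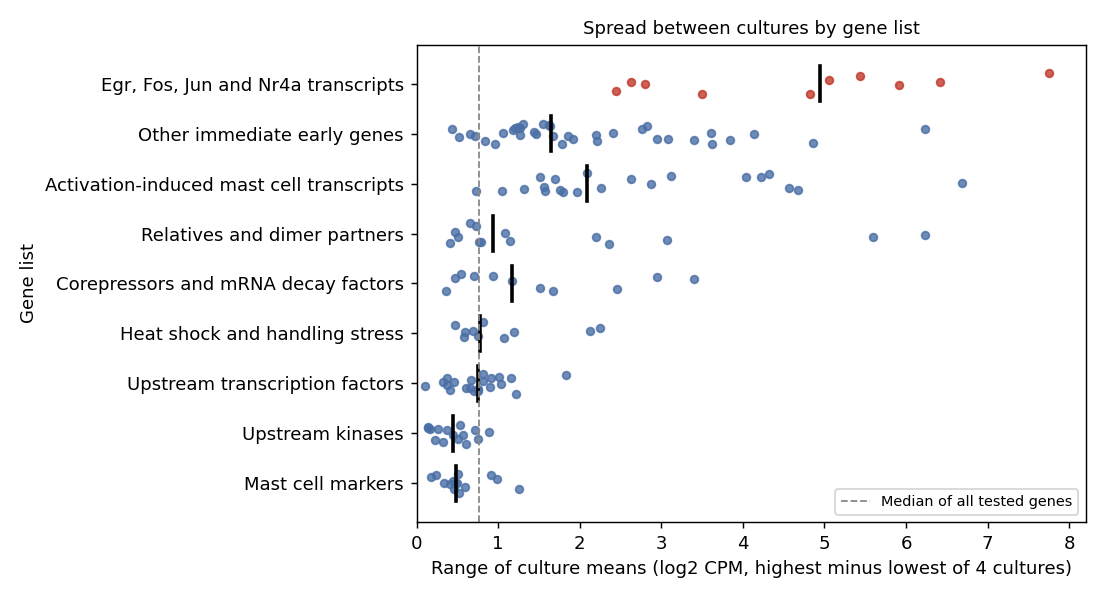
Range of the 4 culture means (log2 CPM, highest minus lowest) for each tested gene of 9 lists, with the list's median as a bar and the median of all tested genes as a dashed line. The Egr, Fos, Jun and Nr4a transcripts run from 2.45 to 7.75, while upstream kinases and mast cell markers sit mostly below 1.

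The levels of the transcripts varied together over the samples. Over the 45 pairs of transcripts, Pearson's r of log2 CPM across the 8 samples had a median of 0.956 (Spearman's rho 0.929), from 0.736 (*Nr4a3* and *Jun*) to 0.999 (*Egr2* and *Egr3*). These 8 points are 4 pairs from 4 cultures with culture 1 apart, so the values are descriptions. Without culture 1 the median was 0.813 (rho 0.83) over 6 samples, with all 8 samples in the scaling. *Egr1*, *Egr2*, *Egr3*, *Junb* and the Nr4a transcripts were highest in culture 3 under both RNPs, *Fos* was highest in culture 4 under both, and *Fosb* and *Jun* were highest in culture 3 with scrambled RNPs and in culture 4 with *Zc3h12a* RNPs. The sets used next follow that order of cultures in these same samples, so a higher r within than between them is partly built in. The 21 pairs among the Egr and Nr4a transcripts and *Junb* had an r of 0.837 to 0.992, and the 3 pairs among *Fos*, *Fosb* and *Jun* had 0.717 to 0.877. The 21 pairs of 1 of these 7 with 1 of the other 3 had 0.0931 (*Jun* and *Nr4a3*) to 0.813 (*Egr3* and *Fosb*), with a median of 0.426, and *Fosb* had a higher r with *Egr3* than with *Jun* (0.753). *Jun* and *Junb*, 2 members of 1 family, had an r of 0.0931 across these 6 samples.

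**Figure D3:**
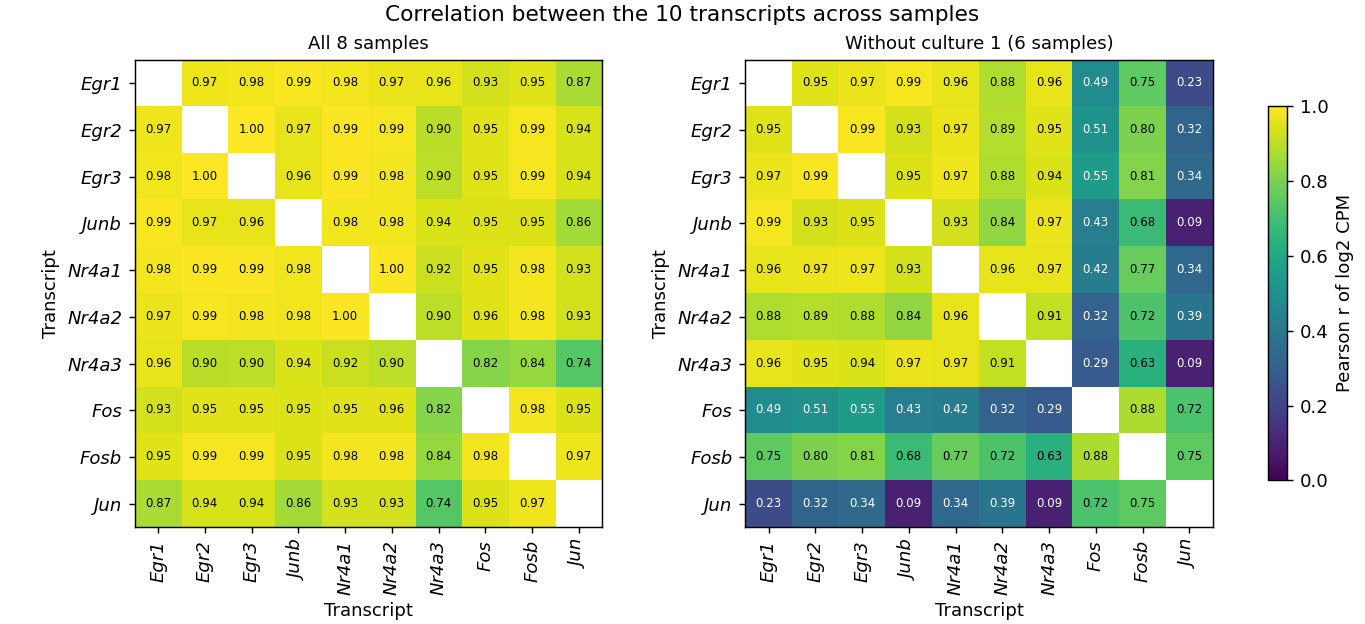
Pearson's r of log2 CPM between each pair of the 10 transcripts (both axes) over all 8 samples (left) and over the 6 samples without culture 1 (right), on a colour scale from 0 to 1. The block of Egr, Nr4a and *Junb* transcripts keeps an r of at least 0.837 in the right panel, while *Jun* falls to between 0.0931 and 0.39 with each of them.

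Genes outside the list with the most similar profile were found by the correlation of their log2 CPM with the mean standardized profile of the 10, over 8 samples and among 9658 genes with a mean log2 CPM of at least 2. They were *Ptgs2*, the inducible cyclooxygenase (r = 0.998), *Ppp1r15a*, a phosphatase subunit of the stress response (0.994), *Rgs2*, a regulator of G protein signalling (0.989), *Tnfaip2* (0.987), the immediate early gene *Ier2* (0.984), the chemokine gene *Ccl4* (0.982), *Epm2aip1* (0.981) and the kinase gene *Plk3* (0.977). *Ptgs2* stood at 0.285, 16.1, 78.9 and 31.3 CPM with scrambled RNPs in cultures 1 to 4 and at 0.832, 19.1, 43.4 and 33.7 CPM with *Zc3h12a* RNPs. Its order of cultures was that of *Egr1*. Without culture 1, r remained at 0.985 for *Ptgs2*, 0.953 for *Ppp1r15a* and 0.952 for *Epm2aip1*, and was 0.736 for *Ccl4*. The median gene had an r of -0.15 over the 8 samples. Of the 9658 genes, 67 exceeded 0.9 over the 8 samples and 136 did so without culture 1, with 16 genes in both counts. At the other end were *Mpg*, a DNA glycosylase gene (r = -0.977), *Fermt3*, an integrin activator gene (-0.965), *Klf10* (-0.947) and *Gm10384* (-0.944). Without culture 1 these were -0.808, -0.66, -0.905 and -0.373. *Klf10* stood at 57.6, 37.1, 21.4 and 34.6 CPM with scrambled RNPs, highest in culture 1 and lowest in culture 3.

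*Zc3h12a* RNPs were compared with scrambled RNPs within cultures. No gene passed the limits (log2 fold change beyond 0.5 and adjusted p at most 0.05) in the edgeR quasi-likelihood test blocked on replicate number, neither among the 10 transcripts (0 of 10) nor among all 14934 genes (0%). At an unadjusted p of at most 0.05, 2 of 10 were counted (*Junb* and *Nr4a3*), beside 6.17% of all genes. DESeq2, also blocked, called 58 of the 9143 genes to which it gave an adjusted p, *Nr4a3* among them. Blocked limma-trend called 1 of 14934 genes and none of the 10. Without culture 2, edgeR called 137 of 15082 genes, of the 10 only *Nr4a3*. The scrambled sample of culture 2 had the lowest scaling factor (0.883) of all samples. It also had the fewest genes with counts (18365, beside 19336 to 20238 in the others). Whether this bears on the count of called genes was not tested. The median log2 fold change of the 10 was -0.027, beside 0.038 over all genes, with 4 transcripts above 0 and 6 below.

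*Nr4a3* had the largest difference of the 10, with a log2 fold change of -0.75 (SE 0.21, adjusted p = 0.575 in edgeR). It averaged 117 ± 201 CPM (SD, n = 4) with scrambled RNPs and 49.2 ± 74.9 CPM with *Zc3h12a* RNPs, and was lower with *Zc3h12a* RNPs in 4 of 4 pairs, by log2 differences of -0.93, -0.10, -1.38 and -0.55 in cultures 1 to 4. In the exact two-sided sign-flip test, 2 of the 16 sign assignments over the pairs gave a sum as extreme, the fewest that 4 pairs allow, so that test could not pass 0.05. The call depended on the method. The adjusted p of *Nr4a3* was 0.00913 in DESeq2, 0.0468 in limma-trend after the replicate effect was removed from the values, and 0.00213 in edgeR without culture 2, and it ranged up to 1 over the other alternatives. The difference in culture 1 compared 50 reads with 23.

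*Junb* averaged 2706 ± 1471 CPM with scrambled RNPs and 2362 ± 1299 CPM with *Zc3h12a* RNPs, and was also lower in 4 of 4 pairs, by log2 differences between -0.13 and -0.29 (log2 fold change -0.21, SE 0.071, adjusted p = 0.686 in edgeR). *Egr1* averaged 6662 ± 4674 and 5249 ± 2997 CPM, and was lower in 3 of 4 pairs (log2 fold change -0.22, SE 0.10, adjusted p = 0.865). *Fos* differed by -0.022 on the log2 scale (SE 0.094) and had the smallest differences within pairs, at most 0.29 either way. The fitted differences of *Jun* (0.26, SE 0.28), *Egr2* (0.26, SE 0.23), *Fosb* (0.25, SE 0.27) and *Egr3* (0.21, SE 0.31) were positive, and those of *Nr4a2* (-0.13, SE 0.24) and *Nr4a1* (-0.032, SE 0.27) negative. None of these 6 had an unadjusted p of at most 0.05.

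The pairs did not share a direction. In culture 1, 8 of 10 transcripts were higher with *Zc3h12a* RNPs (median log2 difference 0.59), by up to 1.47 for *Egr3*. In culture 3, 0 of 10 were higher (median -0.69), down to -1.38 for *Nr4a3*. Cultures 2 (5 of 10 higher, median 0.0019) and 4 (6 of 10 higher, median 0.043) lay between. Medians over all genes were between -0.059 and 0.027 in the same pairs. The scrambled sample of culture 1 was the lowest of the 8 for 8 transcripts and that of culture 3 the highest for 8, so in these 2 cultures the *Zc3h12a*-RNP samples lay nearer to the middle. The fitted median log2 fold change of the 10 was -0.14 without culture 1 and 0.21 without culture 3.

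**Figure D4:**
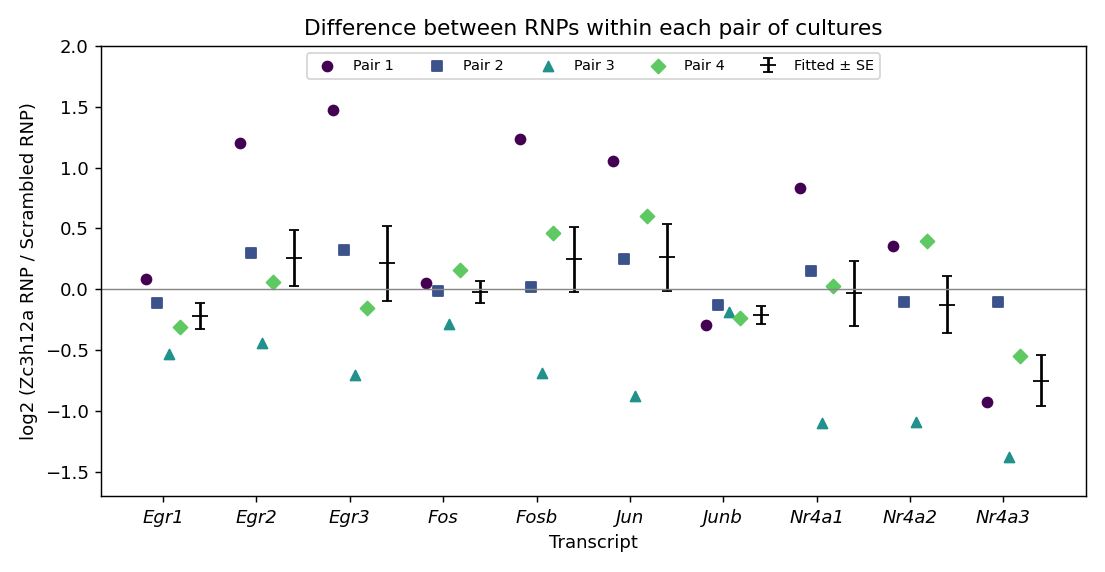
Log2 difference between *Zc3h12a* RNPs and scrambled RNPs for each of the 10 transcripts within each of the 4 pairs (symbols), with the fitted log2 fold change ± SE in black. *Junb* and *Nr4a3* lie below 0 in all 4 pairs, while for most others pair 1 lies above 0 and pair 3 below.

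None of the related gene lists could hold a called gene between RNPs, since edgeR called 0% of the 14934 genes tested. The lists differed in how far they varied between cultures. Of the relatives and dimer partners of these factors, 14 of 16 passed the filter on low counts, 7 fitted higher and 7 lower, and 12 were called between cultures (85.7%). Over all genes tested that share was 28.0%, and it was 42.5% of the 9668 genes with a mean log2 CPM of at least 2. Their fitted extremes were *Maff*, a small Maf protein gene (log2 fold change -0.34, SE 0.13), and *Atf3*, a stress-induced partner of Jun (0.39, SE 0.32). *Egr4* and *Fosl2*, picked after their values were seen, had an r of 0.956 and 0.930 with the mean profile, and *Egr4* spanned 0.0951 to 16.2 CPM. *Jund*, picked likewise, spanned 312 to 569 CPM (1.82-fold), beside 11.0-fold for *Jun* and 6.45-fold for *Junb* over the 8 samples.

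The factors and kinases that act upstream of these genes had smaller ranges between cultures than the 10 transcripts. Because the 10 were chosen with these samples in view, nothing is read from that difference. Only mRNA was measured, not the activity of these proteins. All 21 upstream transcription factors passed the filter, with 8 fitted higher and 13 lower. Between cultures 14 were called (66.7%, beside 28.0% of all genes tested and 42.5% of those with a mean log2 CPM of at least 2). An r above 0.9 with the mean profile was found for 0 of them. It was rare elsewhere too, at 67 of 9658 genes outside the 10, so nothing is read from that 0. The median range of these factors between cultures was 0.75 on the log2 scale, beside 0.76 over all genes. The extremes between RNPs were *Crtc2*, a CREB coactivator gene (log2 fold change -0.34, SE 0.14), and *Mef2c* (0.67, SE 0.72, at about 2 CPM). Of the upstream kinases, 15 of 16 passed the filter, 6 fitted higher and 9 lower, and 5 were called between cultures (33.3%, median range 0.44). *Map2k1*, which encodes the kinase MEK1, had the lowest log2 fold change (-0.20, SE 0.11) and *Rps6ka3*, which encodes RSK2, the highest (0.12, SE 0.087).

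Of the corepressors and mRNA decay factors, 10 of 11 fitted lower with *Zc3h12a* RNPs and 4 of 11 had an unadjusted p of at most 0.05 (6.17% of all genes did), with a median log2 fold change of -0.14 beside 0.038 over all genes. Low unadjusted p-values were not particular to this list. The counts were 9 of 36 other immediate early genes, 4 of 21 activation-induced transcripts, 4 of 14 mast cell markers and 3 of 14 relatives and dimer partners. They were 2 of 10 heat shock and handling stress transcripts, 1 of 21 upstream transcription factors and 0 of 15 upstream kinases. *Zfp36l1*, a relative of tristetraprolin, was lowest (-0.45, SE 0.17, adjusted p = 0.718 in edgeR) and *Khsrp* highest (0.044, SE 0.11). Between cultures 9 of the 11 were called (81.8%, beside 28.0% of all genes tested), with a median range of 1.17 on the log2 scale.

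Other immediate early genes passed the filter in 36 of 37 cases, with 14 fitted higher and 22 lower. Between cultures 29 were called (80.6%, beside 28.0% of all genes tested, median range 1.65), 10 had an r above 0.9 with the mean profile, and 3 did so without culture 1. Among the 9658 genes with a mean log2 CPM of at least 2 outside the 10, 67 had an r above 0.9, or 136 without culture 1. *Per1*, a clock gene induced by CREB, had the lowest log2 fold change (-0.72, SE 0.16, adjusted p = 0.424 in edgeR), and *Dusp2* the highest (0.94, SE 0.65) at a mean below 1 CPM in both groups. Activation-induced mast cell transcripts passed in 21 of 23 cases, with 9 fitted higher and 12 lower. Of these, 19 were called between cultures (90.5%, median range 2.09), and 12 had an r above 0.9, or 1 without culture 1. *Tnf* had the highest log2 fold change (0.84, SE 0.18, adjusted p = 0.424) and was higher in 4 of 4 pairs, and *Areg* the lowest (-0.86, SE 0.46) at a mean of 2.48 ± 2.43 CPM with scrambled RNPs.

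Values that could move with these transcripts were set beside them. The heat shock and handling stress transcripts summed to 2238 CPM (scrambled) and 2183 CPM (*Zc3h12a* RNP) in culture 1 and to between 2199 and 3390 CPM in the other samples. Of this list 10 of 12 passed the filter, 7 fitted higher and 3 lower, 8 were called between cultures (80.0%, beside 28.0% of all genes tested), and the fitted extremes were *Hspe1* (log2 fold change -0.14, SE 0.096) and *Hmox1* (0.37, SE 0.13). *Hspa8* alone gave 1234 to 1860 CPM of the sum. *Dnajb1*, a heat shock cochaperone gene picked after its values were seen, had an r of 0.966 with the mean profile of the 10 (0.951 without culture 1), the only one of the list above 0.9. It stood at 82.6, 181, 438 and 308 CPM in cultures 1 to 4 with scrambled RNPs and at 86.2, 188, 370 and 381 CPM with *Zc3h12a* RNPs. Mast cell markers summed to 56946 to 66714 CPM with scrambled RNPs and 54124 to 57623 CPM with *Zc3h12a* RNPs. *Cpa3* alone gave 26728 to 34240 CPM of that sum. Of 15 such markers 14 passed the filter, 13 fitted lower and 1 higher, and 3 were called between cultures (21.4%). Their median log2 fold change was -0.12, beside 0.038 over all genes, and some of the 13 lay near 0, such as *Fcer1a* (-0.019, SE 0.12). *Hdc*, the histamine-forming enzyme gene, was lowest (-0.75, SE 0.22, adjusted p = 0.645 in edgeR) and *Mcpt4* highest (0.33, SE 0.24). The part of either list, or of *Dnajb1*, in the spread of the immediate early transcripts was not tested. In bulk RNA, fewer cells with a transcript and less of it per cell cannot be told apart.

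Basophil markers summed to 445 to 541 CPM, of which *Cd200r3* alone gave 439 to 535 CPM, while the basophil protease genes *Mcpt8* (1.43 to 8.51 CPM) and *Prss34* (0.905 to 2.25 CPM) were low. The markers of other cell types were lower in sum, with macrophage markers at 7.75 to 10.3 CPM, neutrophil markers at 0.76 to 1.46 CPM, eosinophil markers at 2.04 to 6.08 CPM, lymphocyte markers at 1.60 to 6.37 CPM and stroma markers at 3.30 to 15.6 CPM. Of these lists, basophil first, 3 of 4, 2 of 8, 1 of 9, 2 of 6, 2 of 8 and 5 of 6 genes passed the filter. Of those genes 0 were called between RNPs or between cultures, beside 0% and 28.0% of all genes tested. With so few genes tested, nothing is read from these counts. In culture 1 the sums of the basophil, macrophage and neutrophil markers were 541, 8.40 and 0.76 CPM with scrambled RNPs and 445, 8.84 and 1.14 CPM with *Zc3h12a* RNPs, beside 2612 and 2830 CPM for the 10 immediate early transcripts, which reached 31212 CPM in culture 3. Among the genes of these lists that passed the filter, the extreme log2 fold changes were -1.65 (*Nkg7*, SE 0.76) and 0.83 (*Lepr*, SE 0.68), both at a few CPM or less.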

How the data were processed

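RNA of 8 BMMC samples (4 per RNP) was sequenced by the authors as poly(A)-selected libraries with 2 × 50 bp reads, mapped with HISAT2 2.2.1 to GRCm39 (Ensembl 107) and counted per gene with featureCounts 2.0.1. The deposited values are raw counts per gene symbol. The strand setting and the treatment of reads that fit several genes are not given in the sources used here, so reads shared between Egr, Fos, Jun or Nr4a paralogs are uncertain. The batch correction that the study names is not in these counts.

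Here, counts were filtered with filterByExpr (14934 genes kept), scaled by TMM and tested with the edgeR 4.0.16 quasi-likelihood test with RNP and replicate number as terms. P-values were adjusted by Benjamini-Hochberg over all genes tested. Log2 CPM used a prior count of 2. A call between RNPs needed a log2 fold change beyond 0.5 and an adjusted p of at most 0.05. The design text names 4 mice and both RNPs. That same-numbered samples share a mouse was inferred from this, from the 4 samples per RNP and from their correlation, and is not stated. Deviations from the group means correlated at 0.718 to 0.756 between same-numbered samples over 9668 genes with a mean log2 CPM of at least 2, and at most 0.137 between others. Over all 14934 genes same-numbered samples correlated at 0.0414 to 0.624, and others at up to 0.398. Alternatives used DESeq2 1.42.0 and limma 3.58.1 (R 4.3.3). The tests were first run on simulated counts. The simulated comparisons between RNPs held no difference between cultures, so how the tests behave under the spread seen here was not tested.

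The members and gene lists were chosen with earlier results of these data known. Genes named are the 10 members, *Zc3h12a*, the called or extreme genes of each list by log2 fold change, and the 8 most and 4 least similar genes. Exceptions are *Kit*, *Fcer1a*, *Cpa3*, *Tpsab1*, *Egr4*, *Fosl2*, *Jund*, *Hspa8*, *Dnajb1* and *Cd200r3*, named after their values were seen. The neutrophil and eosinophil lists hold 4 and 3 symbols with no row in the tables used. The lists share *Atf3*, *Btg2*, *Maff* and *Zfp36*. Transcript lengths and gene positions are from GENCODE (GRCm39) and promoter windows from RefSeq (GRCm38.p6). Figures were drawn with matplotlib 3.10.9.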

Additional observations from a re-analysis of the deposited data

Results flagged for a closer look

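In 2 of 22 groups of 4 samples examined on the log2 scale (10 transcripts and *Zc3h12a*, each under both RNPs), 1 sample stood apart by Dixon's ratio of the gap to the range. At 1 in 20, chance gives 1.1 of 22. For *Nr4a2* with *Zc3h12a* RNPs the ratio was 0.858, with 14.9 CPM in culture 1 beside 328 to 546 CPM in the others. For *Zc3h12a* itself with scrambled RNPs the ratio was 0.872, with 24.9 CPM in culture 1 beside 37.1 to 39.3 CPM.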

How the results depend on the processing

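With 4 pairs, adjusted p-values between RNPs depended on the method, and culture 1 carried most of the spread between cultures. Genes called between RNPs numbered 0 of 14934 tested in edgeR, 58 of 9143 in DESeq2 (8 higher, 50 lower) and 1 of 14934 in limma-trend. After the replicate effect was removed before limma-trend, 113 of 14934 were called, in a fit that does not charge the replicate terms to the degrees of freedom. The counts were 1 of 14934 with DESeq2 size factors, 40 of 23473 with no filter and 3 of 11903 with at least 10 counts in every sample. Leaving out 1 replicate gave 0 to 137, the highest without replicate 2 (of 15082 tested). Of the 10 transcripts 1 (*Nr4a3*) was called in DESeq2, 1 after the replicate effect was removed, and 0 to 1 when 1 replicate was left out. The cause of these differences was not tested.

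Without the replicate block, 0 genes and 0 of the 10 transcripts were called, the median log2 fold change of the 10 was -0.26, and *Egr2* (-0.11), *Egr3* (-0.33) and *Fosb* (-0.056) turned negative. *Fos* and *Nr4a1* turned positive with total counts only (0.046 and 0.035) and with no filter (0.012 and 0.011). Leaving out 1 replicate also turned the sign of *Egr3* (-0.13 to 0.48), *Fosb* (-0.025 to 0.51), *Fos* (-0.083 to 0.037), *Nr4a1* (-0.26 to 0.27) and *Nr4a2* (-0.31 to 0.16). None of these was called. *Nr4a3*, *Junb* and *Egr1* stayed negative and *Jun* positive under all 13 alternatives.

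Genes called between cultures numbered 4181, or 2364 with DESeq2 size factors and 1443 to 2878 when 1 replicate was left out. The median fold between scrambled samples ranged from 2.88 to 55.9 and the median r between transcripts from 0.815 (rescaled without replicate 1, beside 0.813 with the scaling of all 8 samples) to 0.975 when 1 replicate was left out.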
